A study of Homo sapiens with 24 samples.

Results

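COBLL1 and RASSF6 are a pair of genes whose levels went up under Entospletinib (Ento) and down under AZD5153 (AZD) in the lymphoma line SU-DHL-4. They were chosen by that pattern, that is by their measured changes under Ento and under AZD in SU-DHL-4, and they are 2 of the 25161 gene symbols in the table. The study profiled 24 Clariom D arrays of SU-DHL-4, a diffuse large B-cell lymphoma line, and of DG-75, a Burkitt lymphoma line. Over 72 h, cells of each line received the solvent DMSO, Ento at 1 µM, AZD at 0.01 µM, or both at these doses (Ento+AZD). The 8 groups held 3 arrays each, which the labels call biological triplicates and number 1 to 3. Each disease was represented by 1 established line.

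COBLL1 encodes the Cordon-bleu WH2 repeat protein-like 1, a relative of the actin nucleator COBL. RASSF6 encodes a member of the Ras association domain family with a SARAH domain, through which such proteins bind the Hippo kinases MST1 and MST2, and it is known as a promoter of apoptosis. The target of Ento is SYK, a tyrosine kinase downstream of the B-cell receptor. AZD binds the bromodomains of BET proteins, which read acetylated chromatin and help transcription of their target genes.

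COBLL1 lies on the minus strand of chromosome 2 at chr2:164657931-164842076, and RASSF6 on the minus strand of chromosome 4 at chr4:73571550-73620631 (RefSeq, GRCh38.p14). The windows around their outermost annotated starts are shown because both genes moved together in SU-DHL-4. Each runs from 250 bases before the start to 50 bases after it, chr2:164842027-164842326 and chr4:73620582-73620881, and is written 5′ to 3′ on the strand of the gene. Capitals mark matches to CCAAT (or ATTGG, its reverse complement), to the GC box GGGCGG (or CCGCCC) and to the forkhead motif TGTTTAC (or GTAAACA).
COBLL1: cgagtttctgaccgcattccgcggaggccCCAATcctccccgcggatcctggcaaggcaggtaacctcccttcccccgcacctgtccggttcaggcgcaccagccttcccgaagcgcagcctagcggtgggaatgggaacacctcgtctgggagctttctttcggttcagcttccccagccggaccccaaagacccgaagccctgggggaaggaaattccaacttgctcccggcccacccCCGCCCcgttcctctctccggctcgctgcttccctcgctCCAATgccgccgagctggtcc
RASSF6: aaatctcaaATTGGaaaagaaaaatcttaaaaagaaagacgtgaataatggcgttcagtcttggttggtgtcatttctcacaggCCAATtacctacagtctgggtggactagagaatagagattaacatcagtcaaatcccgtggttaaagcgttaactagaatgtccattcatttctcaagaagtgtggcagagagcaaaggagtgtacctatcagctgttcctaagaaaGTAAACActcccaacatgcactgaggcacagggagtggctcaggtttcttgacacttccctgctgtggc
The COBLL1 window held CCAAT at -221 and 30 bases from the start and a GC box at -10. The RASSF6 window held CCAAT at -241 and -166 and the forkhead motif at -19, with no GC box. These matches did not overlap each other.

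Searched on both strands of 35116 human promoter windows of the same length, GGGCGG was present in 45%, CCAAT in 34.6% and TGTTTAC in 3.42%. The COBLL1 window held 24 CG dinucleotides and that of RASSF6 held 4, beside a median of 14 over all windows. The second RASSF6 window held 16, and the other COBLL1 windows 30 and 32. The other 2 annotated COBLL1 windows each held a GC box, and 1 of them held CCAAT, at the same place as the second match of the first window. The second RASSF6 window, which overlaps the first, held a GC box and the same forkhead match. None of the 5 windows held the E-box CACGTG (7.26% of all windows), TATAAA (11.5%), TGANTCA (7.71%) or ATGCAAA (4.46%). CCAAT and the GC box thus occurred in windows of both genes. A match describes letters in the window and shows no binding.

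Values are on a log2 scale, so that a difference of 1 is a change by a factor of 2, and levels of different genes are not comparable. RNA came from whole cultures, where fewer expressing cells and less RNA per cell cannot be told apart. Array medians lay between 4.89 and 5.14, and replicate arrays correlated at 0.981 to 0.992 over all genes. B-cell markers were present throughout (CD79A 11.21 to 12.43, PAX5 7.90 to 8.88). Of the T-cell markers CD3D stood at 2.75 to 3.69 and CD3E at 3.37 to 4.72, and the epithelial marker EPCAM at 1.93 to 3.28. Of the myeloid markers LYZ stood at 1.91 to 3.33, whereas CD14, at 4.28 to 5.48, lay around the array medians. HEXIM1, which is known to rise under BET inhibitors, differed from DMSO by 0.93 under Ento+AZD in DG-75 (adjusted p = 0.0226, limma). Under AZD the difference was 0.77 (adjusted p = 0.0768) there and 0.15 in SU-DHL-4 (adjusted p = 0.799, limma), where Ento+AZD gave -0.15 (adjusted p = 0.778, limma).

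In SU-DHL-4, COBLL1 stood at 5.79, 6.03 and 6.32 under DMSO (replicates 1, 2 and 3). Under Ento it stood at 6.97, 6.93 and 7.23, and every Ento array lay above every DMSO array. Under AZD it stood at 2.86, 4.64 and 2.94. All of these lay below DMSO, with replicate 2 about midway between the other AZD arrays and the DMSO arrays. On the arrays of replicates 1 and 3 about 20% of all rows were lower still. Under Ento+AZD the values were 5.48, 5.10 and 5.61. The combination thus lay below DMSO and above AZD on every array, without overlap with either.

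RASSF6 in SU-DHL-4 stood at 4.35, 4.22 and 5.35 under DMSO and at 6.32, 4.79 and 7.05 under Ento. Ento replicate 2 lay below DMSO replicate 3, so that these groups overlapped, although each Ento array was above the DMSO array of its own number. Under AZD the values were 2.44, 2.55 and 2.56, the tightest of the 8 groups for this gene. On those AZD arrays between 13.8% and 15.3% of all rows of the table were lower still, and no detection value was used to tell such a level from absence. Under Ento+AZD the values were 4.65, 3.09 and 4.09, which lay above every AZD array and overlapped with DMSO.

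The SU-DHL-4 changes chose these genes and are given as description, without a test. COBLL1 had a log2 change of 0.99 under Ento (SE 0.35, 1.99-fold) and of -2.57 under AZD (SE 0.35), relative to DMSO. RASSF6 had a log2 change of 1.41 under Ento (SE 0.36, 2.66-fold) and of -2.12 under AZD (SE 0.36). These AZD changes and their ranks are as measured. All AZD arrays for RASSF6, and replicates 1 and 3 for COBLL1, lay within the range of LYZ and EPCAM. Across genes that is only a rough sign of a low level, and no detection value was used. Of the 25575 rows of the table, COBLL1 had the lowest AZD change and RASSF6 the next. Ento ranked RASSF6 10th and COBLL1 32nd from the top. The 3 arrays of one group lay wholly above the 3 DMSO arrays in 4.05% of all rows for Ento, and wholly below in 12.9% for AZD. Under the call rule of an adjusted p under 0.05 and a change over 2-fold, 0.0508% of rows were called for Ento and 0.18% for AZD. One array weighed on the size of the COBLL1 response, since without AZD replicate 2 its AZD change was -3.22.

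**Figure D1:**
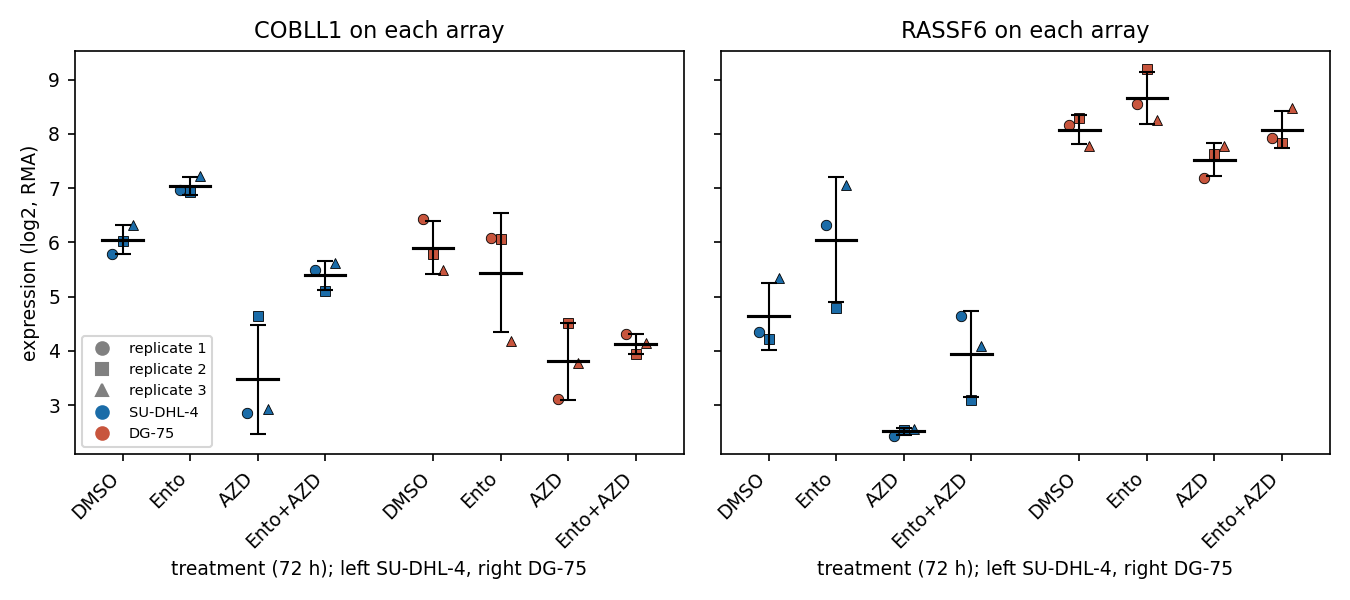
Log2 expression of COBLL1 (left) and RASSF6 (right) on each of the 24 arrays, by treatment and line, with symbols for replicate numbers and bars with whiskers for the mean and SD of 3 arrays. In SU-DHL-4 both means fall in the order Ento, DMSO, Ento+AZD, AZD, and every RASSF6 value of DG-75 lies above every RASSF6 value of SU-DHL-4.

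In SU-DHL-4 both genes were lower with AZD added to Ento, and higher with Ento added to AZD. From Ento to Ento+AZD, COBLL1 had a log2 change of -1.64 and RASSF6 of -2.11, the latter the lowest of all rows and the former the 6th lowest. From AZD to Ento+AZD, COBLL1 had a log2 change of 1.92 and RASSF6 of 1.43, the 2nd and the 5th highest of all rows. All 3 same-numbered differences had the same sign in each of these. The groups did not overlap in any of them, which held for 7.15% of rows in the downward contrast and for 4.15% in the upward one, while 0.0821% and 0.0274% of rows were called. Between AZD and Ento, whose arrays did not overlap for either gene (6.3% of rows), the changes were -3.56 and -3.54, the lowest and the 2nd lowest of all rows. These contrasts share their Ento and AZD arrays with those that chose the genes. Changes and ranks against AZD alone are as measured, since its arrays were low throughout for RASSF6 and on replicates 1 and 3 for COBLL1.

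Relative to DMSO, Ento+AZD left COBLL1 at -0.65 (SE 0.35) and RASSF6 at -0.70 (SE 0.36) in SU-DHL-4. COBLL1 was lower than DMSO in 3 of 3 replicates, without overlap (16% of rows), and RASSF6 in 2 of 3, since RASSF6 replicate 1 was 0.30 higher. If the single agents added up on the log2 scale, the combination would equal their sum. The departure from that sum, which uses the values that chose the genes and is given as description, was 0.01 (SE 0.51) for RASSF6 and 0.92 (SE 0.50) for COBLL1. The replicates gave 0.24, -0.02 and -0.17 for RASSF6, and omissions of an array or replicate number moved its value between -0.41 and 0.45. Both take the AZD arrays at their measured levels, which were low on all 3 arrays for RASSF6 and on replicates 1 and 3 for COBLL1. The sign of the COBLL1 departure differed between replicates, at 1.44, -0.44 and 1.77, where replicate 2 is the one with the higher AZD array. Without AZD replicate 2 the departure was 1.57.

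Since opposite responses chose the genes, their place among all rows is description. Of all rows in SU-DHL-4, 306 (1.20%) were higher than DMSO in 3 of 3 replicates under Ento and lower in 3 of 3 under AZD. The differences between the Ento and AZD changes were 3.56 for COBLL1 and 3.54 for RASSF6, followed in rank by 3.36 and 2.47.

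**Figure D2:**
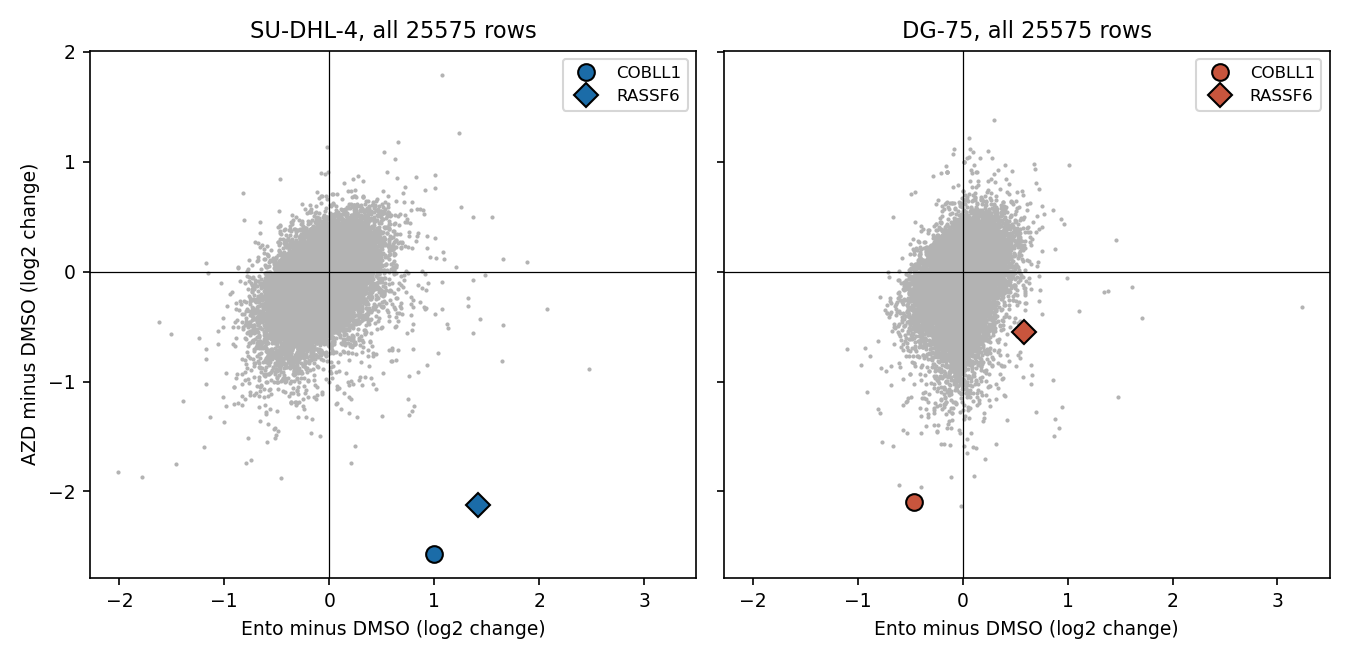
Change under Ento (horizontal axis) against change under AZD (vertical axis), both relative to DMSO on the log2 scale, for all 25575 rows of the table in SU-DHL-4 (left) and DG-75 (right). In SU-DHL-4 the COBLL1 point (0.99, -2.57) and the RASSF6 point (1.41, -2.12) lie apart from the grey cloud at the lower right, while in DG-75 COBLL1 (-0.46, -2.10) lies at the bottom left and RASSF6 (0.58, -0.55) at the right edge of the cloud.

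DG-75 was not used to choose the genes, and its contrasts were tested with limma over all rows. COBLL1 stood at 6.44, 5.80 and 5.48 under DMSO, at 6.09, 6.06 and 4.19 under Ento, at 3.11, 4.52 and 3.78 under AZD, and at 4.31, 3.94 and 4.14 under Ento+AZD. Every AZD and every Ento+AZD array lay below every DMSO array. AZD replicate 1, at 3.11, lay within the range of LYZ and EPCAM, and no detection value was used, so that the AZD change is as measured. Ento replicate 3 stood apart from the other Ento arrays and lay within the range of the AZD arrays. RASSF6 stood on the same array at 8.25, within the range of the DMSO arrays.

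The AZD change of COBLL1 in DG-75 was -2.10 (SE 0.43, 4.29-fold lower, 95% interval -3.04 to -1.16), lower in 3 of 3 replicates and the 2nd lowest of all rows. Its adjusted p was 0.0679 (unadjusted p = 0.000457, limma), so that it was not called, where 0.164% of rows were called lower and 14.6% had all AZD arrays below DMSO. Under Ento+AZD it had a log2 change of -1.78 (SE 0.43, 95% interval -2.72 to -0.83, adjusted p = 0.0569, limma), again in 3 of 3 replicates. There 0.708% of rows were called lower and 14% lay wholly below DMSO. Whether these changes passed the call rule depended on the fit. One fit of all 24 arrays gave adjusted p of 0.0261 and 0.0313, while the alternatives that kept all arrays ran up to 0.110 and 0.0836. Of 15 omissions of an array or replicate number, 1 gave a call under AZD (without Ento replicate 3, adjusted p = 0.0320, highest of the 15 0.847, limma). Under Ento+AZD 2 of 15 did (without Ento replicate 3 or AZD replicate 1, adjusted p = 0.0192 and 0.0238, highest 0.375, limma).

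Under Ento, COBLL1 in DG-75 had a log2 change of -0.46 (SE 0.43, 95% interval -1.40 to 0.48, adjusted p = 1.00, limma), higher than DMSO in 1 of 3 replicates. Without Ento replicate 3 the change was 0.10. The difference between the lines under Ento was not tested, since SU-DHL-4 values chose the genes.

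RASSF6 in DG-75 stood at 8.17, 8.30 and 7.77 under DMSO, at 8.55, 9.20 and 8.25 under Ento, at 7.18, 7.63 and 7.77 under AZD, and at 7.92, 7.84 and 8.47 under Ento+AZD. Its values under Ento overlapped with those under DMSO. The AZD arrays lay below DMSO, but in replicate 3 by less than 0.01. Its order of means was Ento, DMSO, Ento+AZD and AZD, as in SU-DHL-4, but DMSO and Ento+AZD lay within 0.01 of each other and changed places by quantile normalization (Ento+AZD higher by 0.16) and by median subtraction (higher by 0.082).

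None of the RASSF6 changes in DG-75 was called. The change was 0.58 under Ento (SE 0.26, 95% interval 0.02 to 1.15, adjusted p = 1.00, limma), higher in 3 of 3 replicates, where 0.00391% of rows were called. It was -0.55 under AZD (SE 0.26, 95% interval -1.12 to 0.01, adjusted p = 0.371, limma). Between AZD and Ento the change was -1.14 (SE 0.26, 95% interval -1.70 to -0.57, adjusted p = 0.0712, limma), without overlap of the groups, beside 0.328% of rows called lower and 15.2% wholly below. Without Ento replicate 3 this contrast was called at -1.40 (adjusted p = 0.0308, limma), and so it was when rows under the median level were left out (adjusted p = 0.0358, limma). It was not called in the other 14 omissions, where the adjusted p reached 0.846.

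The combination in DG-75 gave no call for RASSF6 either. Its change from DMSO was -0.01 (95% interval -0.57 to 0.56, adjusted p = 0.996, limma), that from Ento -0.59 (95% interval -1.15 to -0.03, adjusted p = 0.311, limma) and that from AZD 0.55 (95% interval -0.02 to 1.11, adjusted p = 1.00, limma). The 3 Ento+AZD arrays all lay above the 3 AZD arrays, as they did in 3.81% of rows, and no row was called in that contrast (1030 rows had an unadjusted p under 0.05). COBLL1 had a log2 change of 0.33 from AZD to Ento+AZD (95% interval -0.62 to 1.27, adjusted p = 1.00, limma), with 2 of 3 replicates higher, and without AZD replicate 1 the value was -0.25. From Ento to Ento+AZD, where 0.598% of rows were called lower, COBLL1 had a log2 change of -1.31 (95% interval -2.26 to -0.37, adjusted p = 0.166, limma), and from Ento to AZD of -1.64 (95% interval -2.58 to -0.70, adjusted p = 0.107, limma). Without Ento replicate 3 both were called, at -1.87 and -2.20 (adjusted p = 0.0297 and 0.0261, limma), and in none of the other omissions, where the adjusted p reached 0.635 and 0.879. The departure from additivity in DG-75 was 0.79 (SE 0.61) for COBLL1 and -0.04 (SE 0.36) for RASSF6, and neither was called. The replicates gave 1.55, -0.85 and 1.66 for COBLL1, and omissions of an array or replicate number moved its departure between 0.21 (without AZD replicate 1) and 1.61 (without replicate 2).

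**Figure D3:**
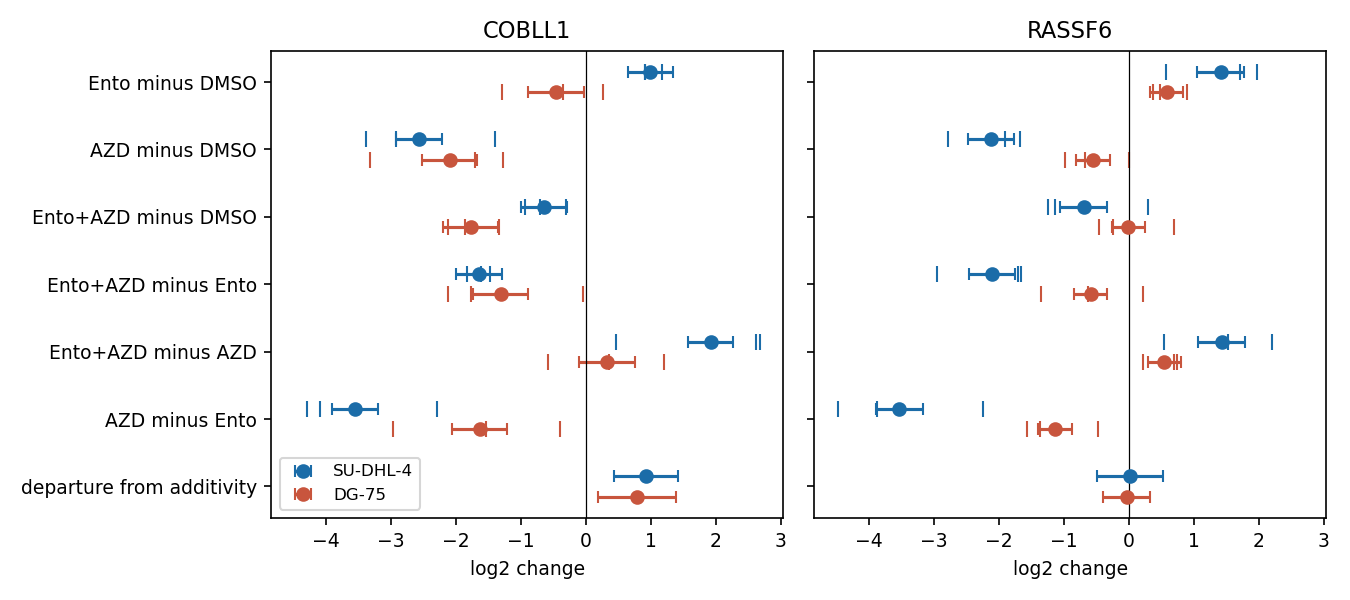
Log2 change of COBLL1 (left) and RASSF6 (right) in 6 contrasts between treatments and in the departure from additivity, for SU-DHL-4 (blue) and DG-75 (red), where points with whiskers are the limma estimate and its SE and vertical ticks the same-numbered differences of the 3 replicates. COBLL1 lies near -2 under AZD in both lines (-2.57 and -2.10), and RASSF6 lies at -2.12 (SU-DHL-4) and -0.55 (DG-75).

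In DG-75, 456 rows (1.78%) were higher under Ento and lower under AZD in 3 of 3 replicates. RASSF6 was among them and COBLL1 was not. After subtraction of each array's median, which removes shifts common to an array, RASSF6 was no longer among them. Of the 42 rows called lower under AZD in DG-75, 19 had an Ento change above 0 and 0 exceeded 0.5. By the difference between the Ento and AZD changes, COBLL1 ranked 21st and RASSF6 118th of all rows in DG-75.

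Ordered by mean over the 8 groups, COBLL1 was highest in SU-DHL-4 under Ento (7.04 ± 0.16, SD, n = 3 in each group), apart from the rest. Then came SU-DHL-4 DMSO (6.05 ± 0.26), DG-75 DMSO (5.91 ± 0.49), DG-75 Ento (5.45 ± 1.09) and SU-DHL-4 Ento+AZD (5.40 ± 0.27), each overlapping with its neighbour. The lowest 3 were DG-75 Ento+AZD (4.13 ± 0.19), DG-75 AZD (3.81 ± 0.71) and SU-DHL-4 AZD (3.48 ± 1.00), which also overlapped from neighbour to neighbour. A gap without overlap lay between SU-DHL-4 Ento+AZD and DG-75 Ento+AZD. In the absence of drug the lines thus had overlapping COBLL1 levels.

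RASSF6 was ordered by line first. The DG-75 means were 8.67 ± 0.48 (SD, n = 3) under Ento, 8.08 ± 0.27 under DMSO, 8.08 ± 0.34 under Ento+AZD and 7.53 ± 0.31 under AZD. The SU-DHL-4 means were 6.05 ± 1.15 under Ento, 4.64 ± 0.62 under DMSO, 3.94 ± 0.79 under Ento+AZD and 2.52 ± 0.07 under AZD. Neighbours did not overlap between Ento+AZD and AZD in either line, nor between DG-75 AZD and SU-DHL-4 Ento. The lines were tested under Ento+AZD, the condition that the choice of genes did not use. There RASSF6 was lower in SU-DHL-4 by 17.5-fold (-4.13, SE 0.43, adjusted p = 1.07e-07, limma), beside 4.23% of rows called lower. The fold is as measured, since RASSF6 in SU-DHL-4 replicate 2 stood at 3.09, within the range of LYZ and EPCAM. COBLL1 was 1.27 higher in SU-DHL-4 (SE 0.44, adjusted p = 0.0525, limma) and was not called, beside 3.05% of rows called higher. With only the 6 Ento+AZD arrays in the fit the COBLL1 difference was called (adjusted p = 0.00106, limma).

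RASSF genes encode scaffold proteins with a Ras association domain, and 9 others were measured. None of the 9 was called in any of the 7 contrasts of either line. The share of all rows called in these contrasts was 0.0508% (Ento), 0.18% (AZD), 1.19% (Ento+AZD) and 0.379% (AZD against Ento) in SU-DHL-4. In DG-75 it was 0.00391%, 0.18%, 0.833% and 0.344%, and 0.657% from Ento to Ento+AZD, while the departure from additivity gave 0% in both lines. In SU-DHL-4 their Ento changes ran from -0.30 to 0.31 (median -0.10, all rows -0.06), with RASSF2 at the upper end. Their AZD changes ran from -0.39 to 0.04 (median -0.12, all rows -0.08), with RASSF8 at the lower end. In DG-75 the largest single-agent changes were -0.22 for RASSF10 under Ento and -0.50 for RASSF1 under AZD (adjusted p = 1.00 and 0.364, limma).

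Of 24 genes of the Hippo pathway and partners of RASSF6, among them the kinases STK3 and STK4, the co-activator YAP1 and the p53 ligase MDM2, 1 was called in any contrast. TEAD4, a transcription factor that works with YAP1, stood in DG-75 at 6.87, 7.10 and 6.71 under DMSO, at 7.12, 7.06 and 7.06 under Ento and at 5.97, 6.11 and 5.73 under AZD. Every AZD array lay below every DMSO array, as in 14.6% of rows, and below every Ento array, as in 15.2% of rows. TEAD4 fell by 1.14 from Ento to AZD (SE 0.13, adjusted p = 0.0136, limma), where 0.328% of rows were called lower. Its change from DMSO to AZD was -0.96 (adjusted p = 0.0471, limma), just short of 2-fold. In SU-DHL-4 the TEAD4 change from DMSO to AZD was 0.31 (adjusted p = 0.718, limma), and the difference between the lines had an adjusted p of 0.302 (limma). TEAD4 group means in SU-DHL-4 ran from 4.09 to 4.52, below the array medians, and no detection value was used. The largest single-agent changes of the list in SU-DHL-4 were -0.55 for YAP1 under Ento and -0.69 for STK3, the kinase MST2, under AZD (adjusted p = 0.520 and 0.399, limma). In DG-75 under Ento it was -0.25 for WWC1. YAP1 in SU-DHL-4 had means of 2.91 under DMSO and 2.36 under Ento, far below the array medians. The list's median AZD change of -0.09 in SU-DHL-4, against -0.08 over all rows, stood beside -0.07 in DG-75, against -0.06.

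Of 26 genes for WH2 domains, actin nucleation and COBL partners, 1 was called. WASF1 encodes a WAVE protein that activates the Arp2/3 complex. In DG-75 it stood at 8.99, 8.69 and 8.35 under Ento, at 7.76 and 7.40 in replicates 2 and 3 under AZD and lower still in replicate 1, and at 7.33, 7.54 and 7.79 under Ento+AZD. WASF1 fell by 1.29 from Ento to AZD (adjusted p = 0.0474, limma), where 0.328% of rows were called lower. The AZD arrays lay wholly below the Ento arrays, as in 15.2% of rows. From Ento to Ento+AZD WASF1 fell by 1.12 (adjusted p = 0.0451, limma), where 0.598% of rows were called lower. COBL itself, the relative of COBLL1, had group means between 3.80 and 4.42 in both lines, below the array medians. Its log2 change was -0.41 under Ento and -0.55 under AZD in SU-DHL-4 (adjusted p = 0.614 and 0.328, limma). For DG-75 these values were 0.02 and -0.00087 (adjusted p = 1.00 and 0.999, limma). The largest single-agent changes of the list in SU-DHL-4 were -0.67 for PACSIN1 under Ento and -0.61 for WASF2 under AZD. For DG-75 they were 0.59 for ROR1 under Ento and -0.93 for WASF1 under AZD, and none of these was called. PACSIN1 in SU-DHL-4 and ROR1 in DG-75 had group means below the array medians. The list's median AZD change was -0.12 (SU-DHL-4) and 0.01 (DG-75). Under quantile normalization neither TEAD4 nor WASF1 was called, and after subtraction of array medians only TEAD4 was.

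**Figure D4:**
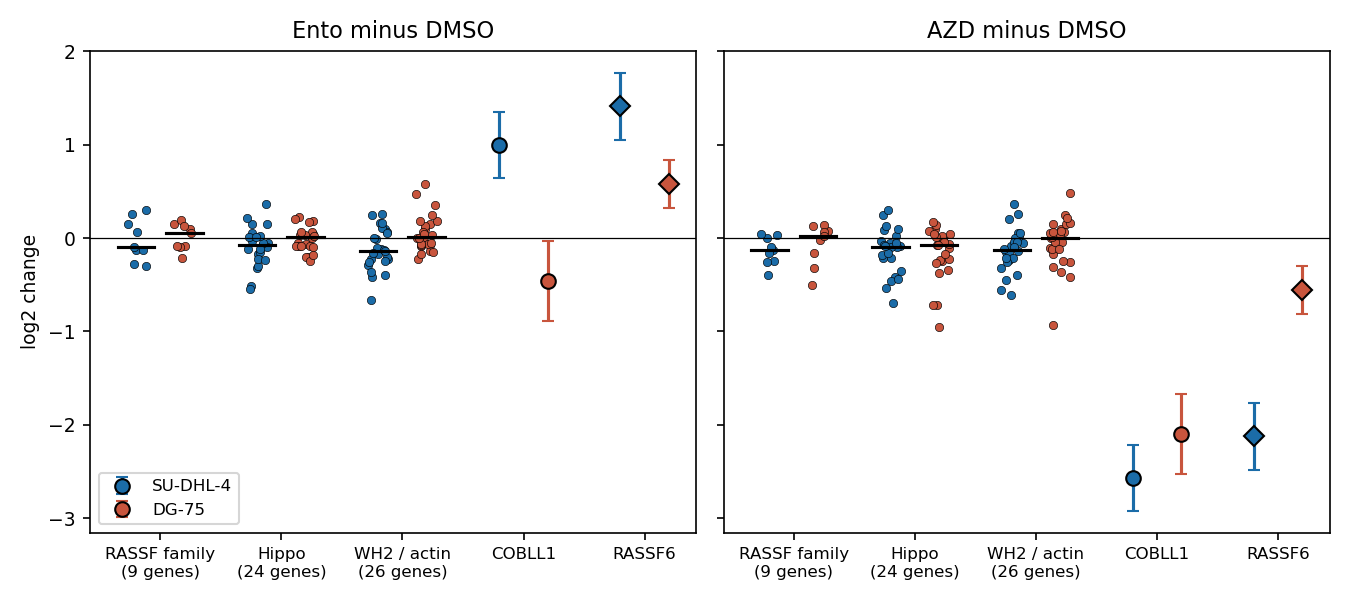
Log2 change relative to DMSO under Ento (left) and AZD (right) for the 9 other RASSF genes, the 24 Hippo genes and the 26 WH2 and actin genes, beside COBLL1 and RASSF6, in SU-DHL-4 (blue) and DG-75 (red), where small points are genes, black bars are medians of a list and whiskers give the SE. Under AZD in SU-DHL-4 no listed gene went below -0.69, while COBLL1 and RASSF6 stood at -2.57 and -2.12.

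The nearest protein-coding genes on the chromosomes gave no call. On either side of COBLL1 lie GRB14, FIGN, SLC38A11 and SCN3A, and beside RASSF6 lie AFM, AFP, CXCL8 and CXCL6. Their changes relative to DMSO in both lines lay between -0.47 and 0.38, and none was called (smallest adjusted p = 0.223, limma). Of all rows, 0.00391% to 1.19% were called in these contrasts, so that so few genes would mostly give none. The levels of these neighbours are not given, and whether they were expressed was not tested. The nearest, GRB14, at 36449 bases from COBLL1, had a log2 change of 0.09 in SU-DHL-4 under AZD, and of -0.30 in the other line.

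Across the 24 arrays, with the mean of each line and replicate number subtracted, COBLL1 and RASSF6 correlated at r = 0.864. The coefficient was 0.960 over the 12 arrays of SU-DHL-4, where both were chosen for the same response, and 0.676 over the 12 of DG-75. The points of these coefficients share the 8 groups and their treatments.

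By the same measure, among 12608 genes at or above the median level, those most like COBLL1 were MDM2 (r = 0.936), JAML (0.930), TCL1B (0.929), METAP1D (0.928) and TCF12 (0.926). MDM2 encodes the ubiquitin ligase of p53, TCL1B a relative of the AKT co-activator TCL1A, and TCF12 an E-protein transcription factor. The log2 change under AZD was -0.43 (SU-DHL-4) and -0.37 (DG-75) for MDM2, whereas it was -1.26 and -1.86 for TCL1B. Under Ento in SU-DHL-4 it was 0.79 for TCL1B and 0.81 for JAML. The genes least like COBLL1 were NEAT1, the RNA scaffold of paraspeckles (-0.853), and LPIN1, a phosphatidate phosphatase (-0.827).

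Those most like RASSF6 were TRANK1 (r = 0.961), GMFG (0.925), SLAMF6 (0.912), DOCK8 (0.911) and SDE2 (0.903). GMFG is a regulator of the Arp2/3 complex, SLAMF6 a receptor of lymphocytes and DOCK8 an exchange factor for Cdc42. The group means of TRANK1 in SU-DHL-4 were 8.11 under Ento, 7.35 under DMSO, 7.13 under Ento+AZD and 6.40 under AZD, the same order as RASSF6. DOCK8 followed that order in SU-DHL-4, while its means in DG-75 lay between 8.49 and 8.55. The least like were LPIN1 (-0.826) and INPP4A (-0.801), so that LPIN1 was at the low end for both genes. Without the filter on level, 5 of 5 genes were shared with this list for COBLL1 and 4 of 5 for RASSF6. With Spearman's rho 3 and 0 of 5 were shared, with SU-DHL-4 arrays alone 1 of 5 for either, and with DG-75 arrays alone 0 of 5 for either.

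**Figure D5:**
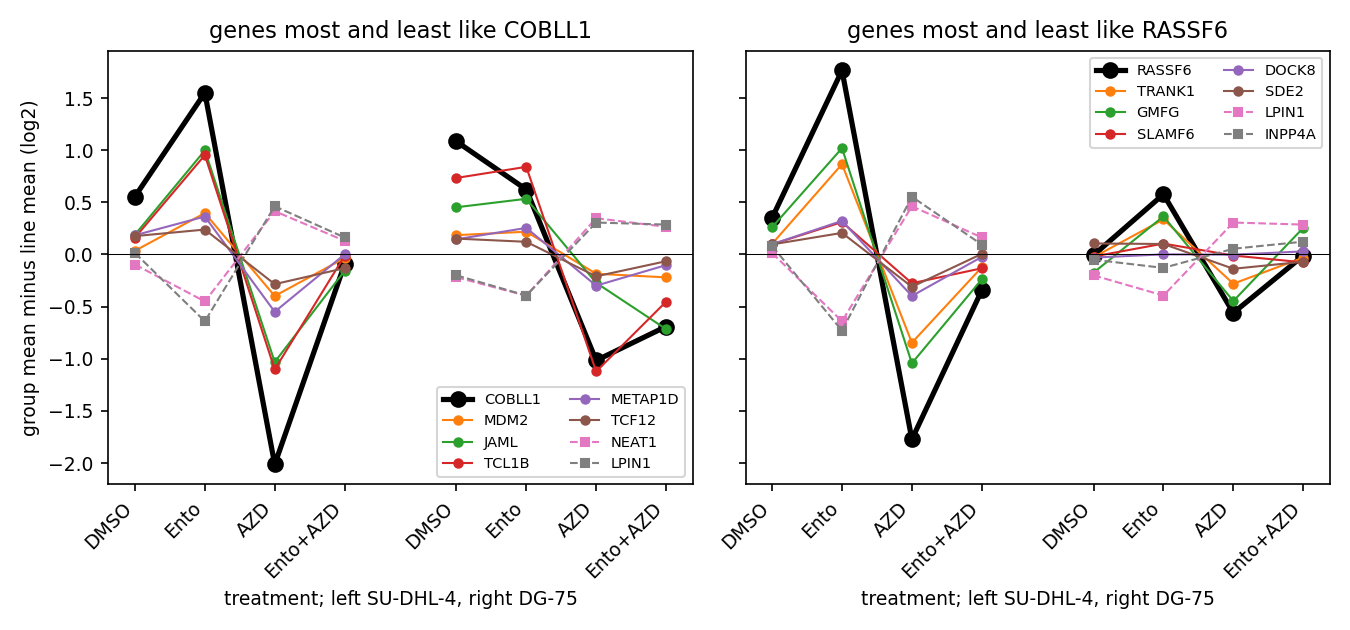
Group means minus the mean of the line (log2) for COBLL1 (left, black) and RASSF6 (right, black), with the 5 genes most like each (solid lines) and the 2 least like (dashed lines), by treatment in SU-DHL-4 and DG-75. COBLL1 and RASSF6 have the widest range of their panels in SU-DHL-4, and the dashed LPIN1 line runs the other way in both.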

How the data were processed

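The deposited table holds log2 expression values of 24 arrays, which the authors made by RMA (robust multi-array average, through limma). Probes were assigned to genes by affycoretools with a Clariom D transcript cluster annotation. RMA corrects background, equalizes arrays and summarises probes, but array medians of the deposited values still lay between 4.89 and 5.14. The genome build of that mapping is not given in the sources used here. Each of the genes had 1 row. Every column was assigned by its name, with 0 columns of per-sample values left unused, and no arrays were identical.

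Each line was fitted on its own by limma 3.58.1 (R 4.3.3; linear model, contrasts and eBayes), with the 4 treatments and the replicate number as a block, since the study's model has a batch term that it does not define. P-values were adjusted over all 25575 rows by the Benjamini-Hochberg method, and calls needed both an adjusted p under 0.05 and a log2 change beyond 1 in size. Lines were compared in 1 fit of the 8 groups. The calculations were tested on simulated data. The number of arrays limits the precision.

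Promoter windows, gene positions and neighbours are from RefSeq tables (GRCh38.p14). Likeness was Pearson's r over 24 arrays for symbols at or above the median level. Named were COBLL1 and RASSF6, list genes that were called or had the largest single-agent change, the 5 most and 2 least alike genes, 2 neighbours on each side, HEXIM1 and cell type markers. COBL is named beyond this rule, with its values seen. COBLL1 and RASSF6 and all lists were chosen with earlier results of these data known. Alternatives were no replicate block, 1 fit of all arrays, only the treatments compared, quantile normalization, subtraction of array medians, omission of low rows, eBayes with trend and robust estimation, no fold change minimum, and omission of each array and each replicate number.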

Additional observations from a re-analysis of the deposited data

How the results depend on the processing

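Of COBLL1 and RASSF6 only 1 tested contrast was called, RASSF6 between lines under Ento+AZD, and it was called under each alternative run on it. COBLL1 under AZD in DG-75 (-2.10) was called with 1 fit of all 24 arrays (adjusted p = 0.0261) and with trend and robust estimation (0.0146). Under Ento+AZD (-1.78) it was called in these fits (0.0313 and 0.0188) and with only the 2 treatments compared (0.0218). From Ento to AZD, COBLL1 (-1.64) was called with trend and robust estimation (0.0406), and RASSF6 (-1.14) with that (0.0176) and without low rows (0.0358). RASSF6 under Ento+AZD in DG-75 changed sign, to 0.16 by quantile normalization and 0.082 by median subtraction. COBLL1 between lines was called with only 6 arrays (1.27, adjusted p = 0.00106), by quantile normalization (1.30, 0.0434) and by median subtraction (1.31, 0.0453). The causes were not tested.

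Omission of arrays or of replicate numbers gave these ranges in DG-75. COBLL1 ran from -0.82 to 0.10 under Ento, -2.51 to -1.49 under AZD, -2.07 to -1.47 under Ento+AZD, -1.95 to -0.91 from Ento to Ento+AZD, -0.25 to 0.78 from AZD to Ento+AZD and -2.26 to -0.97 from Ento to AZD. RASSF6 ran from -0.36 to 0.25 under Ento+AZD, -1.47 to -0.89 from Ento to AZD and -0.31 to 0.29 in the departure from additivity, where COBLL1 ran from 0.21 to 1.61. The RASSF6 ranges were 0.33 to 0.84 under Ento and -0.83 to -0.34 under AZD. To Ento+AZD they were -0.99 to -0.21 from Ento and 0.27 to 0.81 from AZD. In SU-DHL-4, COBLL1 ran from -3.22 to -2.16 under AZD, 1.54 to 2.65 from AZD to Ento+AZD, -4.21 to -3.18 from Ento to AZD and 0.50 to 1.61 in the departure, and RASSF6 from -4.18 to -3.06 from Ento to AZD. Under Ento+AZD in that line, COBLL1 ran from -0.85 to -0.33 and RASSF6 from -1.19 to -0.42.

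In SU-DHL-4, arrays of the same number correlated at -0.11 to 0.15 (number 1), 0.085 to 0.39 (number 2) and 0.15 to 0.26 (number 3), and arrays of different numbers at -0.29 to 0.11. In DG-75 the ranges were -0.35 to 0.34 and -0.41 to 0.36. Not every same-numbered pair was above 0.1, so that the numbers are not shown to pair the arrays, although the fits held the number as a block and differences were given by number. Without the replicate block no call of COBLL1 or RASSF6 changed (COBLL1 under AZD in DG-75 -2.10, adjusted p = 0.0600). Over all rows in SU-DHL-4 it lowered the calls from 13 to 1 under Ento, from 46 to 9 under AZD and from 304 to 45 under Ento+AZD.

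The background of calls depended on the scale. Under AZD the 46 calls of SU-DHL-4 became 0 by either scaling, and the 46 of DG-75 became 2 by quantile normalization and 0 by median subtraction. The share of calls that were higher under Ento+AZD moved from 8.55% to 19.4% and 21.9% in SU-DHL-4 and from 15% to 32.9% and 34.5% in DG-75. Rows higher under Ento and lower under AZD in all SU-DHL-4 replicates numbered 436 after median subtraction. RASSF6 in SU-DHL-4 gave no value without low rows.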
